A study of Mus musculus with 216 samples.

Results

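The Vmn2r genes, which encode the vomeronasal type 2 receptors of the mouse, were examined for the H3K9me3 domains on them. The members are the 123 protein-coding genes of GENCODE vM21 whose symbol starts with Vmn2r, of 22028 protein-coding genes in all. Every domain that overlapped a member's gene body by 1 bp or more was taken, which gave 94 distinct domains of the 43039 in the authors' deposited table. The annotation types Vmn2r-ps159 and Vmn2r-ps130 as protein-coding although their symbols carry the suffix of a pseudogene, and both are members.

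The study followed the loss of H3K9me3, a histone mark of heterochromatin, and of HP1β, a protein that binds it, with ChIP-seq of dTKO cells, a line of mouse embryonic stem cells. The cells carried Suv39h1fl/fl, Suv39h2-/- and Setdb1fl/fl, so the Suv39h2 deletion is shared by every group, and all 3 genes encode enzymes that methylate histone H3 at lysine 9. The medium received 100 µg/ml auxin together with 0.5 µM dTAG13, both of which trigger degradation of proteins that carry a matching tag, and cells were collected at 0, 1, 3, 12, 24 and 48 h, with the 0 h sample as baseline. At each time 3 biological repeats were sequenced in 3 runs of the same libraries, so that the 216 samples are runs: 54 of H3K9me3, 54 of HP1β and 54 of an input for each. A single line was used, and embryonic stem cells are not the sensory neurons in which these receptors work. The table used here gives each domain 1 class of decay (fast, intermediate, slow or residual) over the whole time course and holds 0 columns of sample values. No class therefore has a replicate error, no test over samples could be run, and the read depth behind a class is unknown. The comparisons are counts and shares of genes, domains and bases.

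Vomeronasal type 2 receptors are G protein-coupled receptors with a large extracellular part that binds the ligand. They are made by the basal sensory neurons of the vomeronasal organ, signal through the G protein subunit Gαo, and detect peptides and proteins in the secretions of other animals. The genes lie in tandem clusters that grew by duplication, so neighbouring members are often close copies of each other. H3K9me3 is best known for covering repeated sequence, such as retrotransposons and satellites.

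Reads from one copy of a sequence can be placed on another, so close copies among the domains are shown first, by 60 bases from the middle of the longest exact stretch shared by paired domains, on mm10. The first set comes from the intermediate domains on Vmn2r21 (chr6:123528721-123528780, minus strand), Vmn2r20 (chr6:123413376-123413435, minus strand) and Vmn2r22 (chr6:123645874-123645933, minus strand). Capitals mark the bases that differ from the first sequence.
Vmn2r21: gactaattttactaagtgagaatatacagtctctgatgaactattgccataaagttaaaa
Vmn2r20: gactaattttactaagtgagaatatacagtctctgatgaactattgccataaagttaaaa
Vmn2r22: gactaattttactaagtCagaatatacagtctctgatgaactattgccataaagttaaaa
The whole 6300 bp domain on Vmn2r21 was found without a change inside the domain on Vmn2r20, while Vmn2r22 differed at 1 base of these 60. The second set comes from the fast domains on Vmn2r13 (chr5:109162053-109162112, minus strand) and Vmn2r57 (chr7:41430846-41430905, minus strand) and from an intermediate domain on Vmn2r96 (chr17:18606428-18606487, plus strand).
Vmn2r13: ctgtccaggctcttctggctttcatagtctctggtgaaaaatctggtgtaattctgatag
Vmn2r57: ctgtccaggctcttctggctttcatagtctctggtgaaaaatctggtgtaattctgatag
Vmn2r96: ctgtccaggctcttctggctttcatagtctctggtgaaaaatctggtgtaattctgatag
These 3 stretches were identical, and the exact match between Vmn2r13 and Vmn2r57 ran over 1083 bp. The third set comes from the slow domains on Vmn2r46 (chr7:9752136-9752195, minus strand) and Vmn2r38 (chr7:9078817-9078876, plus strand), whose longest exact match was 455 bp.
Vmn2r46: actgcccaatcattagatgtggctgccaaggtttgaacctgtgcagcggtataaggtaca
Vmn2r38: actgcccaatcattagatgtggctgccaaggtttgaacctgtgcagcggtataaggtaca

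Of the 123 members, 59 (48%) had at least 1 domain and 64 had none. On assembled chromosomes the count was 58 of 122 Vmn2r genes (47.5%), against 5129 of 21938 protein-coding genes (23.4%). With domains of at least 50% unique 31-mers alone, where a 31-mer counts as unique if found once in the genome, it was 30 of 122 Vmn2r genes (24.6%) against 17.3% of all protein-coding genes. Among the other large chemosensory receptor families, 29 of 209 Vmn1r genes (13.9%), which encode the type 1 vomeronasal receptors, and 85 of 1135 Olfr genes (7.49%), which encode odorant receptors, had a domain. Vmn2r genes are longer than those of the other 2 families, with a median gene body of 27.0 kb against 6.80 kb for Vmn1r, 6.0 kb for Olfr and 17.4 kb for all protein-coding genes. Within length classes the Vmn2r share was above that of all protein-coding genes. Under 20 kb it was 7 of 36 Vmn2r genes (19.4%) against 10.26% of all, from 20 to 40 kb 27 of 59 (45.8%) against 20.8%, and at 40 kb or more 24 of 27 (88.9%) against 50.4%. Lengths still differed inside the classes. In the same order, median lengths were 16.8 kb for Vmn2r against 7.0 kb for all, 28.6 against 27.8 kb, and 45.0 against 83.2 kb. Covered shares of bases were 3.63% against 3.15%, 7.88% against 3.08%, and 14.3% against 3.35%.

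Domains took up 9.62% of the bases of Vmn2r gene bodies, against 3.3% for all protein-coding genes and 6.28% of the chromosomes as a whole. With domains of at least 50% unique 31-mers alone, the shares were 2.71% of Vmn2r gene bodies and 1.70% of those of all protein-coding genes. The median covered share of the 58 Vmn2r genes with a domain was 12.4%, from 1.19% for Vmn2r77 to 86.5% for Vmn2r35. More than 25% of the gene body was covered in 11 Vmn2r genes (9.02%), against 820 of all protein-coding genes (3.74%). A single domain was present on 34 members, 20 members had 2, 4 had 3, and Vmn2r7 had 8. On chromosomes, 25 Vmn2r genes (20.5%) had 2 or more, against 1837 of all protein-coding genes (8.37%), without regard to gene length. The smallest overlaps that made a domain count were 11 bp on Vmn2r18 and 12 bp on Vmn2r78, and both genes also had a domain well inside. The members just outside the rule were Vmn2r104, with a slow domain 64 bp away, and Vmn2r44, with a slow domain 167 bp away.

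**Figure D1:**
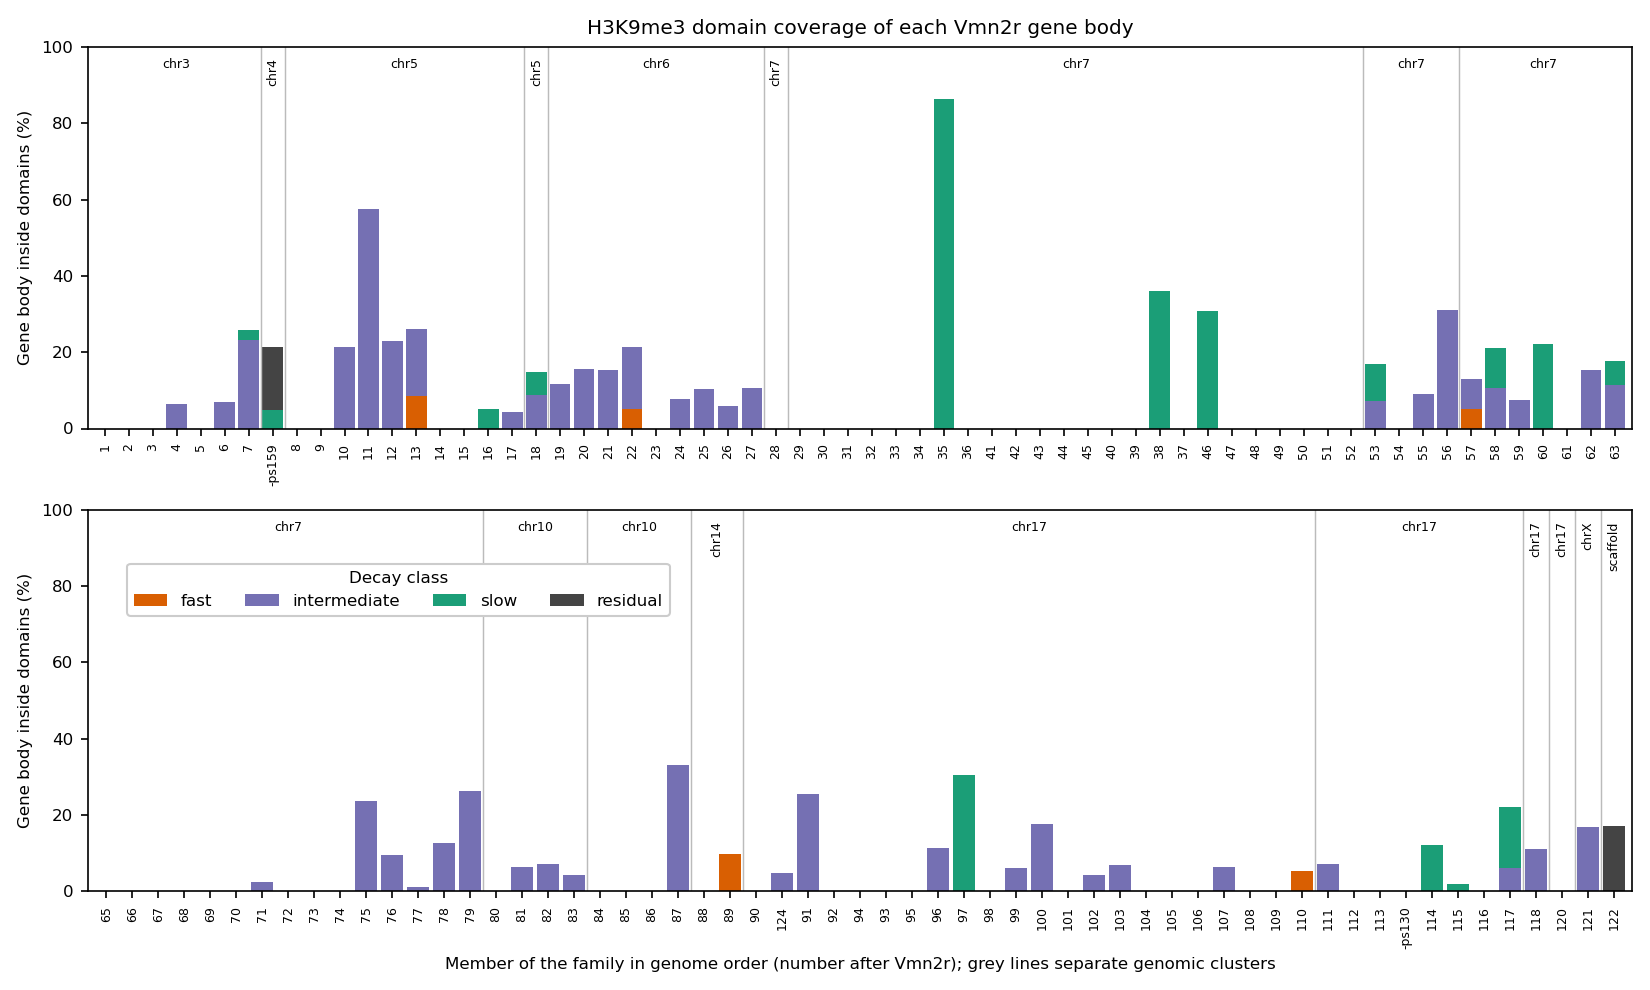
Share of each Vmn2r gene body inside H3K9me3 domains, in percent of its bases, stacked by decay class. Members stand in genome order and grey lines separate clusters. Vmn2r35 stands highest at 86.5%, and 64 members have no bar.

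**Figure D2:**
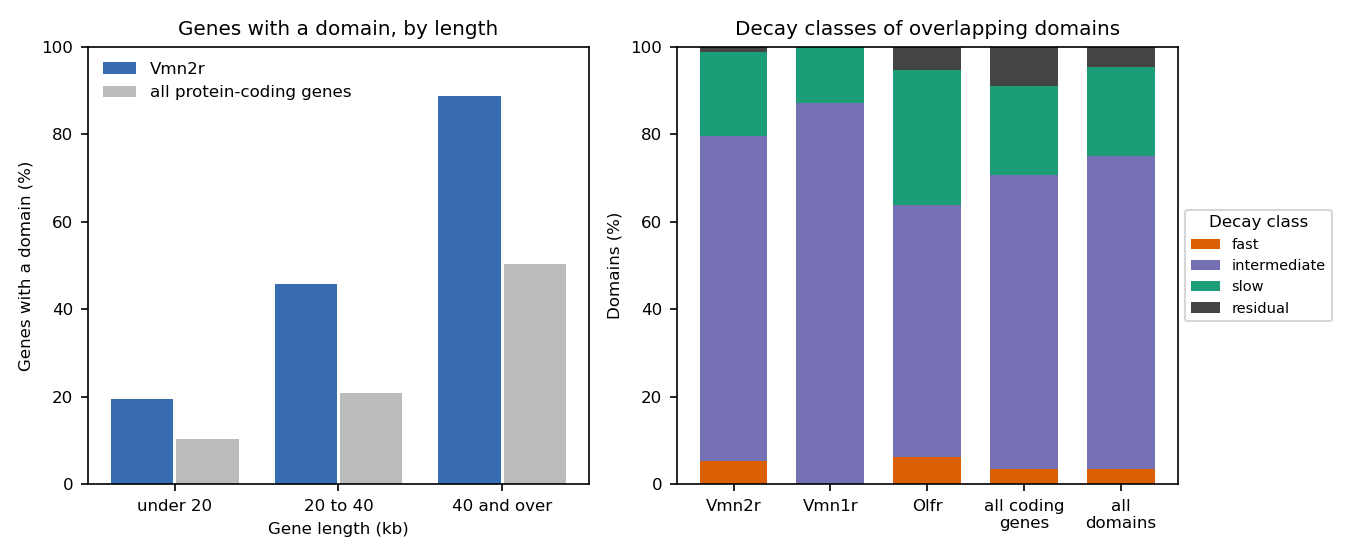
Left, share of genes with a domain by gene length, in percent, for Vmn2r and for all protein-coding genes. Right, share of each decay class among the distinct domains on Vmn2r, Vmn1r, Olfr and all protein-coding genes and among all domains, in percent. Vmn2r bars are the taller ones in all 3 length classes, and intermediate domains make up 74.2% of the Vmn2r domains.

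By class, the 93 Vmn2r domains on chromosomes comprised 69 intermediate (74.2%), 18 slow (19.4%), 5 fast (5.38%) and 1 residual (1.08%). The same shares over all domains of the table were 71.5% intermediate, 20.5% slow, 3.49% fast and 4.57% residual, and over domains on any protein-coding gene 67.4%, 20.3%, 3.41% and 8.86% in the same order. Counted by covered bases, the slow class took 29.6% in Vmn2r genes, against 30.1% in all protein-coding genes and 31.02% over all domains. The domain not on an assembled chromosome, on Vmn2r122, was residual. The median Vmn2r domain was 3.3 kb wide and the median of all domains 3.0 kb. Counted by genes, an intermediate domain lay on 47 Vmn2r genes (38.5%, background 17.3%), a slow one on 15 (12.3%, background 7%), a fast one on 5 (4.1%, background 1.54%) and a residual one on 1 (0.82%, background 3.39%). The background is the share of all protein-coding genes with such a domain. Vmn2r122 included, 38 members had intermediate domains only, 8 slow only, 2 fast only and 1 residual only. The 34 members with 1 domain can have only 1 class. Of the 25 members with several domains, 15 had 1 class throughout, and the same share over all protein-coding genes was not computed.

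The members fell into 12 clusters of several genes and 7 single genes, where neighbours up to 1 Mb apart were joined. Coverage of the gene bodies in the 12 clusters ran from 4.45% on chromosome 10 (Vmn2r80 to Vmn2r83) to 16.6% on chromosome 7 (Vmn2r53 to Vmn2r56). In 10 of the 12 clusters the sequence between the genes was covered more than the gene bodies, and over all clusters 19.6% of the bases between members lay in domains. Sequence between the genes means the whole cluster span outside the gene bodies of members. It is not intergenic sequence alone, as it also holds other genes, among them non-coding Vmn2r genes. The exceptions were Vmn2r53 to Vmn2r56, with no domain in the 20.2 kb between the genes, and Vmn2r84 to Vmn2r87 on chromosome 10, with 11.9% in the genes and 8.37% between them.

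**Figure D3:**
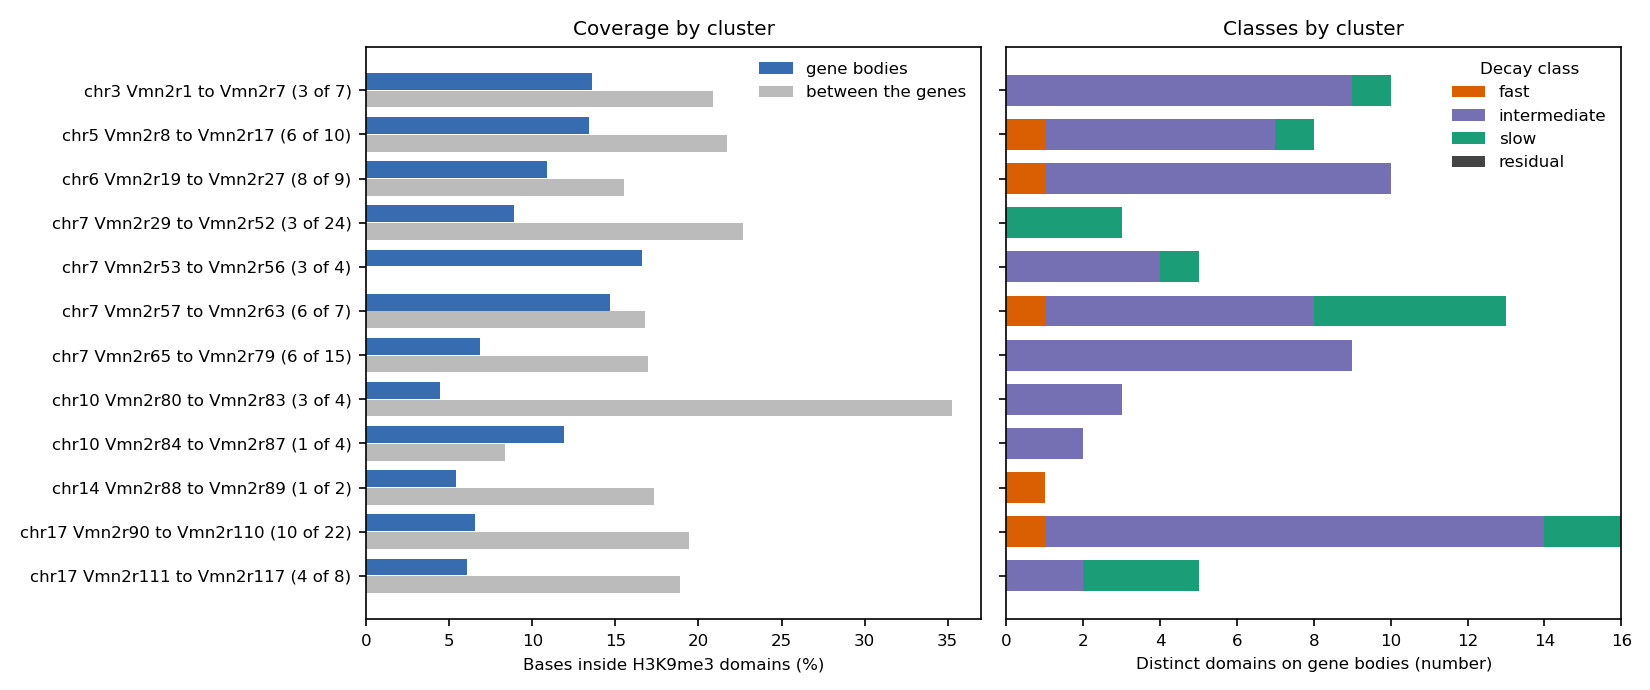
Left, share of bases inside H3K9me3 domains, in percent, in the gene bodies and between the genes of each cluster of several Vmn2r genes, with members with a domain of all members in brackets. Between the genes is the cluster span outside the gene bodies of members, other genes included. Right, number of distinct domains on the gene bodies by decay class. Sequence between genes is covered more in 10 of 12 clusters, and the cluster Vmn2r29 to Vmn2r52 has slow domains alone.

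The cluster on chromosome 3 (64.1 to 64.8 Mb) holds Vmn2r1 to Vmn2r7, the family C receptors, which the basal neurons make together with one of the other Vmn2r receptors. Domains lay on 3 of the 7 genes and covered 13.6% of the gene bodies. Vmn2r7 accounted for most of this: its 160 kb gene body (chr3:64685044-64844765, minus strand) had 7 intermediate domains and 1 slow domain, together 41.1 kb or 25.7%. The annotation places the non-coding gene Gm26939 over all 8 of these domains. Vmn2r4 and Vmn2r6 each had 1 intermediate domain in intron 3, near the middle of the gene, which covered 6.5% and 6.95% of the gene body. Vmn2r1 and Vmn2r2 had none, with the nearest domain 7.85 kb and 22.4 kb away.

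On chromosome 5 (108.8 to 109.5 Mb) 6 of the 10 genes Vmn2r8 to Vmn2r17 had a domain, with 13.4% of the gene bodies covered. A 13.2 kb intermediate domain (chr5:109039501-109052700) covered 57.6% of Vmn2r11 and ran over exons 4 to 6, with 1254 coding bases inside it. Vmn2r13 had a 3.3 kb fast domain in intron 4 and a 6.9 kb intermediate domain in intron 1, together 26.0% of the gene. Vmn2r10 had an intermediate domain over its last exon, which covered 21.5% of the gene. Vmn2r12 had its start inside an intermediate domain, whose promoter sequence is printed further on. The single gene Vmn2r18, farther along chromosome 5, had 2 intermediate domains and 1 slow domain, with 14.7% covered.

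The cluster on chromosome 6 (123.3 to 124.2 Mb), Vmn2r19 to Vmn2r27, had a domain on 8 of its 9 genes, Vmn2r23 being the one without. The domains were 9 intermediate and 1 fast, and covered 10.9% of the gene bodies. Vmn2r20, Vmn2r21 and Vmn2r22 each had an intermediate domain of 6.9, 6.3 and 6.6 kb at the same place, over exon 2 and intron 2, with the midpoint 10.9%, 11.4% and 11.8% of the way along the gene. Of the 31-mers of the domain on Vmn2r21, 100% were also in the domain on Vmn2r20 and 45.5% in the one on Vmn2r22, so the equal class of the 3 domains is not 3 independent observations. No sampled 31-mer of the first 2 of these domains was unique in the genome. Vmn2r22 also had a 2.1 kb fast domain in intron 5. Vmn2r26, whose receptor detects peptides of the kind bound by class I molecules, had 1 intermediate domain of 2.4 kb in intron 2, 5.82% of the gene.

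The largest cluster, Vmn2r29 to Vmn2r52 on chromosome 7 (chr7:7231327-10176573), had domains on 3 of its 24 genes, and all 3 domains were slow. Vmn2r35 lay largely inside a 44.4 kb slow domain (chr7:7770901-7815300), the longest on any member, which covered 86.5% of the gene, from intron 2 to the last exon, with 2094 coding bases. Vmn2r38 had an 8.7 kb slow domain (chr7:9075001-9083700) over intron 5 and part of exon 6, 36.1% of the gene. Vmn2r46 had a 7.2 kb slow domain (chr7:9747601-9754800) that met exon 6, 30.7% of the gene, with 285 exon bases inside it. The other 21 genes lay close to domains without touching one, from 0.167 kb for Vmn2r44 to 11.4 kb for Vmn2r52. Between the genes of this cluster 22.7% of 2440 kb was in domains, 347 kb of them intermediate, 183 kb slow, 14.1 kb fast and 9.0 kb residual, so the intermediate class was present there but not on the genes. In the gene bodies of this cluster 11.9% of the sampled 31-mers were unique in the genome, against 45.3% to 79.0% in the other 11 clusters of several genes. A 50 kb part of the sequence between the genes is unsequenced in the assembly.

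Vmn2r35 shared less sequence with the other gene bodies of the cluster than most of its neighbours did. Its sequence was still repeated, as 0.89% of the sampled 31-mers of its gene body were unique in the genome. Of its 31-mers, 41.6% occurred in another gene body of the cluster, with Vmn2r39 the closest at 19.3%. In 21 of the 24 genes this share was between 51.7% and 96.98%, and it was lower than in Vmn2r35 in Vmn2r51 (37.9%) and Vmn2r52 (1.1%), which had no domain. In the parts of the slow domains inside the genes, 26.0% of the 31-mers for Vmn2r35, 16.9% for Vmn2r38 and 3.243% for Vmn2r46 were also found in members of the cluster without a domain. The whole slow domains on Vmn2r38 and Vmn2r46 shared 55.8% of the 31-mers of the domain on Vmn2r38 and 67.6% of that on Vmn2r46 with each other. They also shared 30.1% and 32.5%, in that order, with the domain on Vmn2r35, and 38.9% and 47.9% with the 15.0 kb slow domain on Vmn2r60, which lies in another cluster.

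The promoters of Vmn2r35 and Vmn2r39 show how alike the starts of covered and uncovered genes can be. Both windows run from 250 bases before to 50 after the RefSeq start on GRCm38.p6, minus strand, at chr7:7819818-7820117 and chr7:9030633-9030932, and neither touched a domain. Capitals mark the 10 bases in which Vmn2r39 differs from Vmn2r35.
Vmn2r35: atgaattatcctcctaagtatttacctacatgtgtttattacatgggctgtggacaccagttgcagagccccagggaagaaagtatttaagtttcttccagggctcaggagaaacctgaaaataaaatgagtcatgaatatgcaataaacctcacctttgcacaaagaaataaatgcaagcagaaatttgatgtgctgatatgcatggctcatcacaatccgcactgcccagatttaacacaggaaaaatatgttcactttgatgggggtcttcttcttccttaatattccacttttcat
Vmn2r39: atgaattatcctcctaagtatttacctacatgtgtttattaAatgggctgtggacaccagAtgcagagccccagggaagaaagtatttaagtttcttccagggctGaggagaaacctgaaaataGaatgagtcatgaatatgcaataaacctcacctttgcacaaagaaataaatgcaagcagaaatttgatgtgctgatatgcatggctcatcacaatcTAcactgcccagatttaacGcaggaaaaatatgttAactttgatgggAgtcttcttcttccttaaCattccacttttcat
The 2 windows were 96.7% identical, while 86.5% of the Vmn2r35 gene body and none of the Vmn2r39 gene body lay in a domain.

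Further along chromosome 7, Vmn2r53 to Vmn2r56 (12.6 to 12.7 Mb) had a domain on 3 of 4 genes, 4 of them intermediate and 1 slow. Vmn2r56 had the highest coverage of these, 31.1%, from 2 intermediate domains in introns 6 and 2. Vmn2r53 had an intermediate domain over exon 6 and a slow one in intron 4, 17.0% in all, and Vmn2r55 an intermediate one in intron 1, 9.01%. The cluster Vmn2r57 to Vmn2r63 (41.4 to 42.9 Mb) had a domain on 6 of 7 genes and 5 of the 18 slow domains of the family, beside 7 intermediate and 1 fast. Vmn2r60 carried 3 slow domains and no other, among them one of 15.0 kb in intron 5 (chr7:42163201-42178200), together 22.0% of its 88.4 kb. A 19.2 kb slow domain (chr7:42879901-42899100) reached into the last exon of Vmn2r63, which also had an intermediate domain in intron 5. Vmn2r58 had 2 intermediate domains and 1 slow one. Vmn2r57 had a fast domain in intron 1 that reached 23 bases of exon 2, and an intermediate one in intron 5. Both domains on Vmn2r57 were also inside the annotated protein-coding gene Gm20449.

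The cluster Vmn2r65 to Vmn2r79 (84.9 to 87.0 Mb) presented a different picture, with 9 domains on 6 of 15 genes, all intermediate, and 6.86% of the gene bodies covered. The domains sat on Vmn2r71 and on the run from Vmn2r75 to Vmn2r79, and the genes from Vmn2r65 to Vmn2r70 had none. The most covered were Vmn2r79 (26.4%), Vmn2r75 (23.8%) and Vmn2r78 (12.7%). Slow domains were present between these genes, where they took 113 kb beside 164 kb of intermediate ones. Here 79.0% of the sampled 31-mers of the gene bodies were unique, against 11.9% in the cluster Vmn2r29 to Vmn2r52.

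On chromosome 10 (79.1 to 79.5 Mb) Vmn2r81, Vmn2r82 and Vmn2r83 each had 1 intermediate domain, on 6.40%, 7.26% and 4.37% of the gene, and Vmn2r80 had none. The domain on Vmn2r83 was 24.6 kb long (chr10:79492501-79517100), the second longest on a member, but met the gene only at its last exon. The sequence between these 4 genes had the highest coverage of any cluster, 35.2%, divided evenly into 32.7 kb intermediate and 32.7 kb slow. In the second cluster of chromosome 10 (130.4 to 130.5 Mb), Vmn2r87 had 2 intermediate domains on 33.02% of the gene and its 3 neighbours none. On chromosome 14, Vmn2r89 had a 1.2 kb fast domain (chr14:51462901-51464100) over exon 5, where the annotation also places the protein-coding gene Gm7247. Its neighbour Vmn2r88, whose receptor detects haemoglobin, had no domain, and the nearest lay 10.0 kb away.

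The second largest cluster, on chromosome 17 (17.7 to 20.6 Mb, Vmn2r90 to Vmn2r110 and Vmn2r124), had domains on 10 of 22 genes, 13 intermediate, 2 slow and 1 fast, with 6.55% covered. Both slow domains were on Vmn2r97, where they covered 30.6% of the gene. One of 10200 bp (chr17:18930301-18940500) met exons 4 and 5 and introns 4 and 5. The other, of 20.4 kb (chr17:18954901-18975300), ran from the last exon past the gene. Vmn2r91 had 3 intermediate domains, one in intron 1 and 2 in intron 5 (25.5%), and Vmn2r100 had 2 in intron 1 (17.7%). The fast domain was on Vmn2r110, a 1.5 kb domain (chr17:20570101-20571600) over exon 6 that the processed pseudogene Gm5145 also overlaps.

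The other cluster on chromosome 17 (22.5 to 23.5 Mb), Vmn2r111 to Vmn2r117 and Vmn2r-ps130, had 3 slow and 2 intermediate domains on 4 of 8 genes. Vmn2r117 was covered most, at 22.0%, by a slow domain in intron 5 and an intermediate one in intron 4, followed by Vmn2r114 with a slow domain over exon 6 (12.2%) and Vmn2r111 with an intermediate one in intron 5 (7.25%). Vmn2r116, the receptor of the peptide pheromone ESP1, had no domain, and the nearest lay 6.80 kb away. Vmn2r115, the receptor of the juvenile peptide ESP22, met a slow domain of 3.0 kb over 338 bp at its last exon, 1.80% of the gene. Of the single genes, Vmn2r118 on chromosome 17 had 2 intermediate domains (11.2%), Vmn2r121 on the X chromosome had 1 (16.7%), and Vmn2r28 and Vmn2r120 had none.

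Residual domains were found on 2 members, Vmn2r-ps159 at the end of chromosome 4 and Vmn2r122 on the scaffold JH584292.1. This scaffold is assigned to chromosome 4 without a position on it. Each residual domain reached the last exon, over 16.7% of Vmn2r-ps159 and 17.1% of Vmn2r122. Vmn2r-ps159 also had a slow domain of 6.9 kb over its start and exon 1. The 2 gene bodies were 89.6% identical over their aligned length, and whether their reads were shared was not tested.

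Within the genes, domains were compared between introns, exons and starts. Introns of Vmn2r genes were covered at 10.8%, against 3.31% for all protein-coding genes, and exons at 6.17% against 3.14%. Coding parts of exons were covered at 2.47% in Vmn2r genes, against 4.21% in all protein-coding genes. Besides the first kb after the start, this was the one gene part with the lower value in Vmn2r genes. The first kb after the start was covered at 1.12% against 2.41%, and the kb before the start at 3.55% against 2.55%. The values of 1.12% and 3.55% rest on 1.37 kb and 4.325 kb inside domains, in that order, over all Vmn2r genes. Of the 94 domains, 57 touched no exon and 17 held a coding base, and 75 lay wholly inside a gene body. With each gene cut into 3 equal parts, the midpoint lay in the first part or ahead of the start for 22 domains, in the middle part for 27 and in the last part or beyond the end for 45. On chromosomes, 61.3% of the 93 Vmn2r domains touched no exon, against 69.6% of the domains on protein-coding genes, and 47.3% had the midpoint in the last part or beyond it, against 34.7%, where a domain counts once for each gene it is on.

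**Figure D4:**
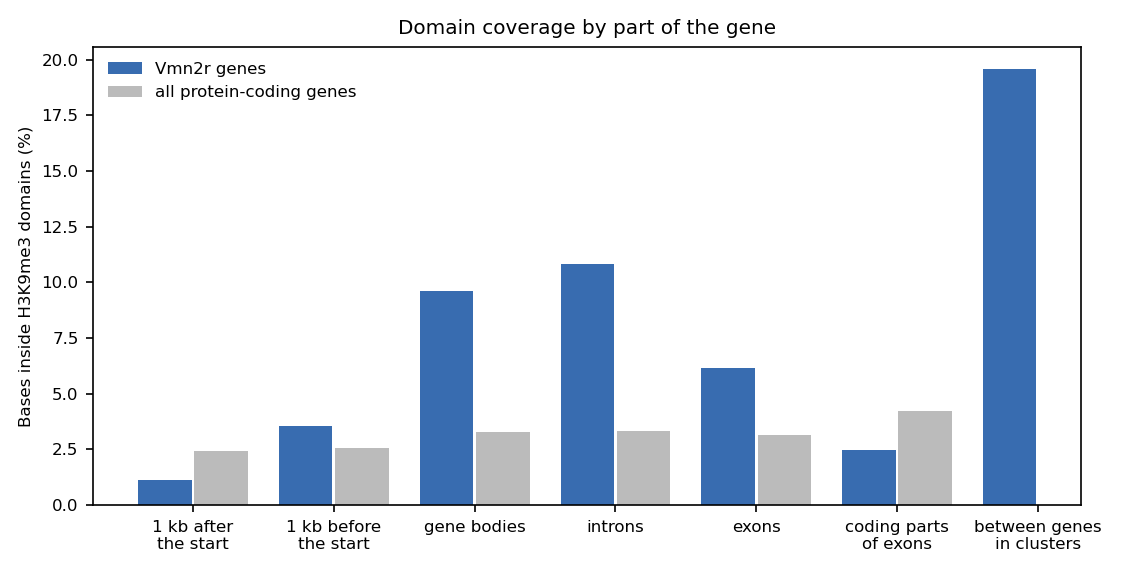
Share of bases inside H3K9me3 domains, in percent, in parts of the gene, for Vmn2r genes and for all protein-coding genes, and between Vmn2r genes of a cluster, for which there is no counterpart. Introns stand at 10.8% in Vmn2r genes, and coding parts of exons and the first kb are the lower values.

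The usual Vmn2r gene has 6 exons, as the longest coding transcript does in 117 members, and intron 5 is the longest intron with a median of 4.87 kb. Of the 82 domains on such genes, 28 met intron 5, 18 intron 1, 8 intron 3, 7 intron 4 and 6 intron 2, and 23 met exon 6, which holds the transmembrane part and the 3′ untranslated region. By bases, 10.9% of intron 5 was covered, against 7.15% of intron 1, 11.6% of intron 2, 5.81% of intron 3 and 10.28% of intron 4.

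The share of members with a domain at the start was near that of all protein-coding genes. Within 1 kb to either side of a transcript start, 9 of 123 members had any base in a domain, on chromosomes 9 of 122 (7.38%) against 6.01% of all protein-coding genes. The largest were Vmn2r12 with 1651 bp, Vmn2r-ps159 with 1398 bp, Vmn2r104 with 936 bp and Vmn2r44 with 833 bp, and the last 2 had no domain on the gene body. RefSeq promoter windows of 300 bases on GRCm38.p6 were matched for 115 members, and 2 of them met a domain. Both are printed 5′ to 3′, with bases inside the domain in capitals: Vmn2r12 (chr5:109097815-109098114, minus strand) lay wholly in an intermediate domain, and Vmn2r104 (chr17:20048156-20048455, minus strand) had its first 55 bases in a slow one.
Vmn2r12: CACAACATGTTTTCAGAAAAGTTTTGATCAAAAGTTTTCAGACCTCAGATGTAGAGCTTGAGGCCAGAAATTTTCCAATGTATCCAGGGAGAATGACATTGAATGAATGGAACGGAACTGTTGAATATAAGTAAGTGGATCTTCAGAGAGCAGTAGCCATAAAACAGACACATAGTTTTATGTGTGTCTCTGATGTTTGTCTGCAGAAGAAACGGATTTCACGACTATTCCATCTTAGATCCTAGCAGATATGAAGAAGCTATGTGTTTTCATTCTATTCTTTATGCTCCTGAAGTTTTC
Vmn2r104: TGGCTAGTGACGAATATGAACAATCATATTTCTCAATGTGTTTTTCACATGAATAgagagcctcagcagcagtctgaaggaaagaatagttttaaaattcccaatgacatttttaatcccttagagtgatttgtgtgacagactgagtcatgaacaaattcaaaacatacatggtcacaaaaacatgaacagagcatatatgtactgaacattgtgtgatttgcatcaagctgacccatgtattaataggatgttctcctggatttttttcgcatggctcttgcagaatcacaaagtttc
The intermediate domain that holds the start of Vmn2r12 (chr5:109094701-109098600) was 3.9 kb long and covered 23.0% of the gene, with 200 coding bases.

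The 64 members without a domain on chromosomes were not far from one. Their median distance to the nearest domain was 6.16 kb, against 28.4 kb for protein-coding genes without a domain, and 49 of 64 (76.6%) had one within 10 kb, against 24.5%. The farthest was Vmn2r5 at 28.8 kb. The nearest domain was intermediate for 51 of them, slow for 9 and fast for 4. Members with a domain were longer, with a median of 37.5 kb against 21.3 kb for those without, and had more repeat sequence, with medians of 47.7% and 34.1% soft-masked bases in the same order.

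Sequence inside the domains differed from the rest of the same gene bodies. Soft-masked (repeat) sequence made up 77.2% of the bases inside domains and 41.8% outside, and GC was 41.2% inside and 36.6% outside. Of the sampled 31-mers, 35.6% were unique inside domains and 59.4% outside, and 30.02% were found at least 100 times in the genome inside and 7.95% outside. The median Vmn2r domain was 81.6% soft-masked and 42.4% unique, against 71.3% and 47.6% for all domains and 49.6% and 66.7% for domains on protein-coding genes.

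Most slow domains lay in repeated sequence. Of the 35 Vmn2r domains with at least 50% unique 31-mers, 30 were intermediate (85.7%) and 2 slow (5.71%), and of the 59 with fewer, 39 were intermediate (66.1%) and 16 slow (27.1%). Over all domains of the table with at least 50% unique 31-mers, 73.9% were intermediate and 15.6% slow. Over all those with fewer, 69.2% were intermediate and 25% slow. The 2 slow domains in the unique set were on Vmn2r97 (62.7% unique) and Vmn2r-ps159 (53.6%). Uniqueness was taken over whole domains, and both of these lay mostly outside the gene. The one on Vmn2r97 ran to chr17:18975300 while the gene ended at 18958087, and 398 bp of the other were inside Vmn2r-ps159. The part that placement of reads among copies has in the class of the others was not tested.

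**Figure D5:**
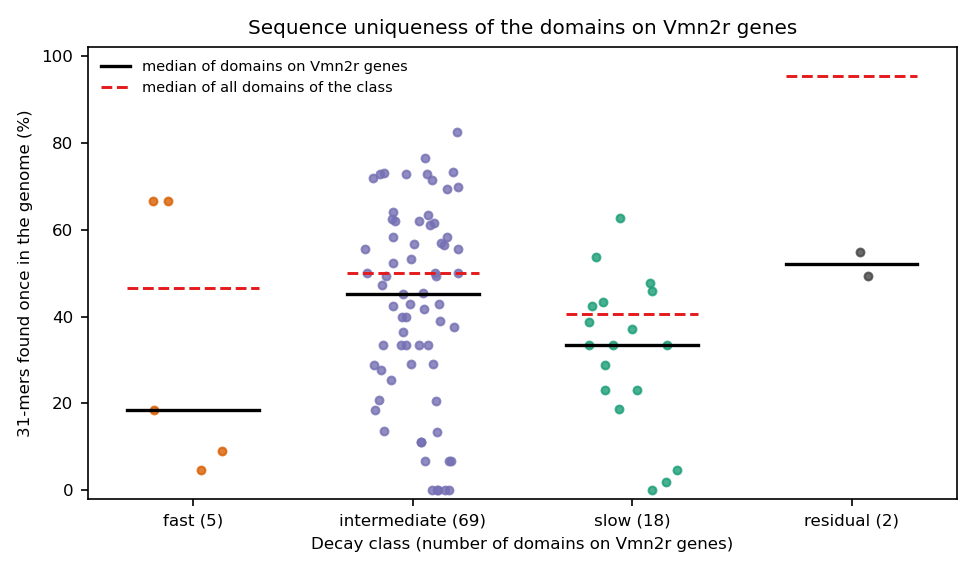
Share of sampled 31-mers found once in the genome, in percent, for each of the 94 domains on Vmn2r genes, by decay class (points, spread sideways for visibility). Black lines are medians of these domains and red dashed lines medians of all domains of the class. Of the 18 slow domains, 16 lie under 50%.

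Alike domains were compared by class. Of 46 pairs of Vmn2r domains that shared more than 20% of the 31-mers of the shorter one, 24 were of the same class and 22 of different classes. The same share over all pairs of domains was not computed, and some domains, such as one on Vmn2r118, stand in many pairs. These counts are therefore no result about the class of alike domains. The fast domains on Vmn2r13 and Vmn2r57 shared 53.7% of the 31-mers of the first and 70.2% of the second. An intermediate domain on Vmn2r96 held 57.4% of the 31-mers of the fast domain on Vmn2r13 and 71.6% of those on Vmn2r57, which is the stretch printed above. An intermediate domain on Vmn2r55 shared 60.6% of its 31-mers with a slow domain on Vmn2r58. Sampled 31-mers of these repeats had a median of 1943 copies in the genome for Vmn2r13, 2353 for Vmn2r57 and 2010 for Vmn2r96. The fast domains on Vmn2r89 and Vmn2r110 were less repeated, with 66.7% unique 31-mers each.

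Retroviruses and the endogenous retroviruses derived from them start reverse transcription from a host tRNA, which pairs with a primer binding site near the 5′ end of the element. Sites of 18 bases that match the 3′ end of an annotated tRNA were found in 4 Vmn2r domains (4.30%), against 4.15% of all domains. They are printed on mm10 with 21 bases on either side and the site in capitals, as the one sequence feature searched for in the domains: Vmn2r87 (tRNA-Ile, intermediate domain, chr10:130486113-130486172, plus strand), Vmn2r97 (tRNA-Lys, slow, chr17:18938555-18938614, minus strand), Vmn2r35 (tRNA-Phe, slow, chr7:7794512-7794571, plus strand) and Vmn2r63 (tRNA-Thr, intermediate, chr7:42914627-42914686, minus strand).
Vmn2r87: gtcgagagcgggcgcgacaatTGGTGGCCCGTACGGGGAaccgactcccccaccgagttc
Vmn2r97: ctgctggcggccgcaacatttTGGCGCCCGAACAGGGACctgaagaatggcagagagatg
Vmn2r35: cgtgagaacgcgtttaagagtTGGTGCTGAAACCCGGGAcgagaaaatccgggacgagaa
Vmn2r63: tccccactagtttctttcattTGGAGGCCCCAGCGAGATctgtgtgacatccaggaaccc
Among all domains, 1.53% held a tRNA-Ile site, 0.387% a tRNA-Lys site, 0.905% a tRNA-Phe site and 0.0886% a tRNA-Thr site, on either strand. Per length, Vmn2r gene bodies had 11.2 sites per Mb inside domains and 0.299 per Mb outside, where 1 tRNA-Leu site was found, and all domains had 11.6 per Mb. A match is a stretch of letters and does not show an intact element.

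Genes annotated as Vmn2r but not as protein-coding were set beside the members. A domain lay on 59 of 123 members (48%) and on 34 of 116 such genes (29.3%), most of them pseudogenes with a median length of 3.16 kb. By bases the order was the other way, with domains over 9.64% of the gene bodies of members and 15.6% of those of the other genes. Their 49 domains were 38 intermediate, 8 slow, 1 fast and 2 residual, 1 of them shared with a coding member.

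Other genes of the vomeronasal system were taken from fixed lists, and their counts stand beside 23.4% of all protein-coding genes with a domain, or 10.26% of those under 20 kb and 50.4% of those of 40 kb or more. Of 15 genes of signalling and development of the sensory neurons, 6 had a domain, with 17 intermediate, 4 residual, 2 slow and 1 fast domain in all. Gnao1, which encodes Gαo, had 3 residual domains and 1 intermediate one (4.33% of the gene), and Ano1 and Ano2, calcium-activated chloride channels, had 1 residual and 2 slow domains in that order. Kirrel3, an adhesion molecule of vomeronasal axons, had 13 intermediate domains over 551 kb, and Trpc2, the channel of the vomeronasal sensory response, had none. The list of class I genes of the sensory neurons held 10 genes, among them B2m, which is not itself a class I gene. B2m alone had a domain, intermediate, over 66.7% of its 5.40 kb, and the 9 H2-M genes had none. Among the genes of ligands, 1 of 15 Esp genes and 3 of 22 Mup genes, which encode secreted peptides and urinary proteins, had a domain, and among formyl peptide receptors, also made in the vomeronasal organ, 1 of 7 (Fpr3). Median gene lengths were 67.9 kb in the signalling list and 1.03 to 4.66 kb in the other 4, and no difference from genes of the same length was tested.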

How the data were processed

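H3K9me3 and HP1β ChIP-seq and matched inputs were sequenced from mouse embryonic stem cells, with 1.5 µg of chromatin from Drosophila spiked into each 20 µg, per the labels' protocols. The submitters' processing notes name bedtools, deepTools, Bowtie2 2.3.4.1 and SAMtools 1.1 as tools, and GRCm38, mm10, mm9 and dm6 as builds. The authors' deposited table gives coordinates and a class in words for 43039 domains. The sources used here do not give the domain caller, the placing of repeated reads, the spike-in scaling or the class limits. Signal tracks, reads and HP1β were not analysed here. The table has 0 columns of sample values, so depth is unknown and no test was run. It pools the runs of all times, and samples were grouped by antibody or input and time.

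Domains lie on a grid of 300 bp and are on mm10, printed 1-based. They were joined with GENCODE vM21 gene bodies by an overlap of 1 bp, and backgrounds use chromosomes 1 to 19, X and Y. Clusters joined members up to 1 Mb apart. Copies of 31-mers were counted in the GRCm38.p6 genome, read every 100 bp. Primer binding sites were 124 distinct 18-base complements of tRNA 3′ ends, taken from 403 annotated genes; 2 sites that fit several amino acids were left out. Sharing between domains used all their 31-mers, and identities come from edlib alignments. Overlap, coverage and copy counts were tested on simulated intervals and sequences. Members and lists were chosen with earlier results of these data known. Named genes are up to 3 members per cluster with the most covered bases, members with fast or residual domains, the 5 most covered members, the 5 longest domains and 6 genes of known role; others were named after their values were seen. The tools were edlib 1.3.9.post1, numba 0.67.0, pandas 2.3.3, numpy 2.4.6, scipy 1.17.1 and matplotlib 3.10.9 in Python 3.11.15.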

Additional observations from a re-analysis of the deposited data

How the results depend on the processing

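The share of members with a domain was 48%, the slow share of their domains 19.1% and the covered share of gene body bases 9.64%, scaffold included. Leaving out each cluster in turn gave 44.7 to 56.6%, 16 to 21.4% and 9.14 to 10.43%. With domains of at least 50% unique 31-mers alone, the 3 values were 25.2%, 5.71% and 2.74%, by fewer domains, against 17.3% of all protein-coding genes with such a domain. A margin of 5 kb gave 69.1% of members with a domain, and exons only gave 27.6%. The share of all protein-coding genes was not computed for either setting, so these values have no background. Counted by covered bases, the slow share was 29.5%. Leaving out Vmn2r7 or Vmn2r35, an alternative chosen after seeing the data, gave 8.91% and 8.93% covered. Over whole cluster spans, the lowest coverage of a cluster was 10.55%, against 4.45% over gene bodies. No other setting moved a value past its limit, which was a 95% binomial interval for shares and 1.5 times for coverage. The interval serves only as a mark, since it takes genes and domains as independent and tandem copies are not. Sets with 1 cluster left out also keep most members, so staying inside the limit is no test of the results. Depth limits cannot be given. No paired analysis was possible because the table holds no value per sample.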
